A study of Mus musculus with 87 samples.

Results

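Mouse embryonic stem cells without Suz12 that carried a rescue with the short Suz12 isoform (KO-S) were compared, after differentiation to neural precursors, with the knock-out cells that carried no rescue (KO). The members are the autosomal genes with a mean normalised read count (baseMean) of at least 10 in the authors' deposited table for this contrast. They number 15306 of the 26171 gene symbols in the table. Another 617 X-linked genes and 7 genes on no autosome passed the same minimum and were left out by the rule.

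All cells came from the stem cell line 129-B13, grown in 20% serum with LIF. Embryoid bodies were formed without retinoic acid, retinoic acid was added on day 4, and RNA was taken on day 8. KO is a full Suz12 knock-out and KO-S is the same genotype with the short isoform added back. KO-L carries the long isoform instead, and WT is the unedited line; both serve here only to place KO-S. Each table compares 2 libraries with 2, and nothing in the labels tells separate differentiations from technical repeats, so the errors cover only the spread between these libraries. The place of the KO-S insertion and the number of clones behind it are not given in the sources used here. These are bulk RNA samples, so fewer cells of a type and less RNA per cell cannot be told apart.

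Polycomb repressive complex 2 (PRC2) places methyl groups on lysine 27 of histone H3, a mark of repressed developmental genes. Suz12 is the scaffold on which the catalytic subunit Ezh2 and the accessory subunits assemble, and the long and short isoforms differ by exon 4. Retinoic acid turns embryoid bodies towards posterior neural fate, with activation of the 3′ Hox genes, proneural factors and neuronal genes. Fate choice at this stage depends on Polycomb silencing of genes of the other lineages.

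The 4 libraries held between 20790836 and 22590504 reads over the genes whose reads could be recovered from the deposited means, and recovery succeeded for 15165 members (99.1%). The libraries of a group are called A and B, which are names without a replicate number. KO library A and library B differed by a median of 0.33 on the log2 scale per gene (absolute difference, 15165 genes), and the KO-S libraries by 0.20. In KO, 1682 genes (11.1%) differed by at least 1 on the log2 scale between the libraries, against 739 (4.87%) in KO-S. The lists in which the KO libraries stood apart included pluripotency genes (22 of 23 higher in library A), germline genes (20 of 20 higher in library A) and endoderm genes (2 of 18 higher in library A). Results that rest on those genes are given below with and without each KO library. In a fit that leaves out a KO library, the one kept was taken to vary like the KO-S libraries, whose spread was smaller. Such counts show how far that library lies from KO-S.

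Suz12 was read in all libraries, the knock-out included. The KO libraries held 1186 and 1100 Suz12 reads and the KO-S libraries 2894 and 2147. The groups did not overlap, and the authors' deposited table gave a log2 fold change of 1.09 ± 0.20 (SE, n = 2 against 2; DESeq2 adjusted p 3.22e-07). Over the 15165 members with reads, the groups did not overlap with KO-S higher in 33.8% and with KO-S lower in 34.2%. In RPM, the reads of a gene per 1000000 reads over the 15142 members with reads in all libraries, Suz12 stood in KO at 57.0 and 56.1, in KO-S at 137 and 101, in KO-L at 150 and 135, in the main WT pair at 154 and 139, and in the other WT pair at 227 and 258. The level per gene does not show which part of the transcript was read, so it checks the direction of the labels and not the deletion or the isoform.

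A gene is called here where the authors' deposited table gives a DESeq2 adjusted p under 0.05. KO-S was called higher in 2556 members, which is 16.7% of those tested, and 2765 were lower, 18.1%. The counts in the gene lists below stand against these shares. The median change over all members was 0.0058 on the log2 scale. Among the called genes, 1151 of the higher (45.0%) and 1681 of the lower (60.8%) changed by at least 1 on the log2 scale. Falls were larger: 816 lower genes changed by at least 2 on the log2 scale, against 390 higher genes. With limma on the recovered reads, fitted without pairing, 1886 were higher and 2248 lower. Without KO-S library A these limma counts were 540 and 974, and without KO-S library B 688 and 1150; the single KO-S library was then taken to vary like the KO libraries.

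**Figure D1:**
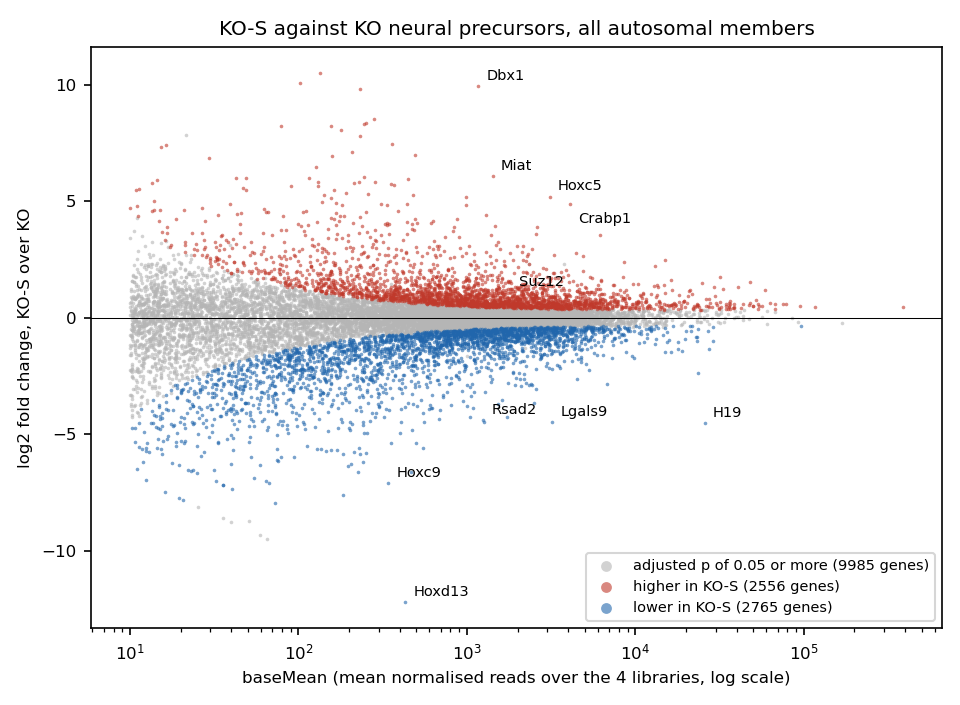
Each point is 1 of the 15306 members, with its mean normalised reads over the 4 libraries on a log axis and its log2 fold change of KO-S over KO from the authors' deposited table; red and blue points are called higher (2556) and lower (2765), grey points are not. Dbx1, Miat, Hoxc5 and Crabp1 lie at the top among well-read genes, and H19, Lgals9 and Hoxd13 at the bottom.

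Among PRC2 subunits, 4 of 11 members were called higher and 0 lower (median 0.11, against 0.0058 for all members). The members called higher include Suz12 itself, the gene added back in KO-S, whose rise was set by the design. Ezh2, the methyltransferase, had 1479 and 1236 reads in KO and 5464 and 5122 in KO-S. Its deposited log2 fold change was 1.93 ± 0.16 (DESeq2 adjusted p 1.19e-29). Jarid2, an accessory subunit that helps recruit the complex, rose by 0.70 ± 0.19 on the log2 scale in the authors' deposited table, and Rbbp4, a histone-binding subunit, by 0.47 ± 0.15. The reads of Jarid2 overlapped between the groups, with 5282 and 2232 in KO and 6748 and 4871 in KO-S. Eed, the subunit that reads the mark, was at 2130 and 1777 reads in KO and 1963 and 1890 in KO-S, a deposited log2 fold change of -0.05 ± 0.18 that was not called. Limma called 2 PRC2 members higher and 0 lower with all 4 libraries, 1 and 0 without KO-S library A, 4 and 0 without KO library A, and 2 and 2 without KO library B.

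PRC1, the partner complex that binds the mark and ubiquitinates histone H2A, gave 3 of 20 members higher and 7 lower. The count of higher members is near the share over all members (16.7%). The CBX proteins read the PRC2 mark. Cbx8 fell from 481 and 394 reads to 39 and 46, and the groups did not overlap. Its deposited log2 fold change was -3.40 ± 0.38. Cbx7 (-1.16 ± 0.23) and Bmi1 (-1.44 ± 0.18), a PRC1 core subunit, also fell in the authors' deposited table, while Cbx2 (0.34 ± 0.17, adjusted p 0.112) and Rnf2 (0.22 ± 0.16, adjusted p 0.288), the ubiquitin ligase, were not called. Limma on the recovered reads called 1 higher and 6 lower of the 20, with 0 higher and 4 lower without KO-S library A and 0 and 3 without KO-S library B.

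Most listed neural genes rose. Of 24 neural progenitor members, 20 were called higher and 0 lower, with a median log2 fold change of 2.04. Of 16 proneural and neurogenic members, 14 were higher and 2 lower (median 4.60), and of 22 postmitotic neuron members, 19 were higher and 1 lower (median 2.30). Pax6, a patterning factor of neural progenitors, had 327 and 272 reads in KO and 2701 and 2704 in KO-S. The authors' deposited table gave it a log2 fold change of 3.14 ± 0.20 (DESeq2 adjusted p 2.61e-54). Sox2, the progenitor maintenance factor, went from 823 and 403 reads to 3044 and 2557, and Nes, the progenitor intermediate filament, from 1865 and 1571 to 6551 and 6065.

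Several neural regulators were close to absent in KO. Hes5, a Notch effector, had 2 and 1 reads in KO and 537 and 602 in KO-S, a ratio of 370 after scaling for depth (exact 95% interval 126 to 1798, counting error only). Neurod4, a proneural factor, had 0 and 1 reads in KO and 414 and 527 in KO-S, a ratio of 918 (exact 95% interval 164 to 36280). Neurog2, another proneural factor, had 4 and 4 reads in KO and 753 and 701 in KO-S. The deposited log2 fold change of Neurog2 was 7.47 ± 0.59 (DESeq2 adjusted p 2.68e-34). In each of these genes every KO-S library lay far above both KO libraries.

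Neuronal genes rose less evenly. Tubb3, the neuronal tubulin, rose from 483 and 529 reads to 2278 and 3410, a deposited log2 fold change of 2.43 ± 0.20. Elavl4, a neuronal RNA-binding protein, rose from 18 and 30 reads to 826 and 1053 (5.27 ± 0.34 in the authors' deposited table). Miat, a long noncoding RNA of neural tissue, had 35 and 23 reads in KO, and its KO-S libraries held 5055 and 752, so the KO-S libraries differed from each other by far more than for other neuronal genes. The deposited value for Miat was 6.07 ± 0.99 (DESeq2 adjusted p 1.07e-08). Other genes of these lists went the other way: Btg2 (-1.35 ± 0.17) and Cbfa2t3 (-1.97 ± 0.32) of the neurogenic list, and Onecut2 (-1.08 ± 0.23) of the neuron list, all fell in the authors' deposited table.

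Leaving out 1 library at a time, limma called 14 to 20 of the 24 progenitor members higher and 9 to 13 of the 16 proneural members, with 0 progenitor members lower in each of these fits. The proneural count fell to 9 without KO-S library B, against 12 with all 4 libraries. Mature markers stayed low. Slc17a6 and Slc6a5, transporters of excitatory and inhibitory neurons, and Chat, the enzyme of acetylcholine synthesis, were below the minimum baseMean. Of 8 glial genes Gfap and S100b were below it as well, and of the 6 members 1 was called higher and 1 lower (median -0.74). Olig1, a factor that is also expressed in ventral progenitors, rose (25 and 8 reads in KO, 321 and 282 in KO-S). Aldh1l1 fell, from 12 and 8.1 RPM in KO to 2.6 and 2.9 in KO-S.

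**Figure D2:**
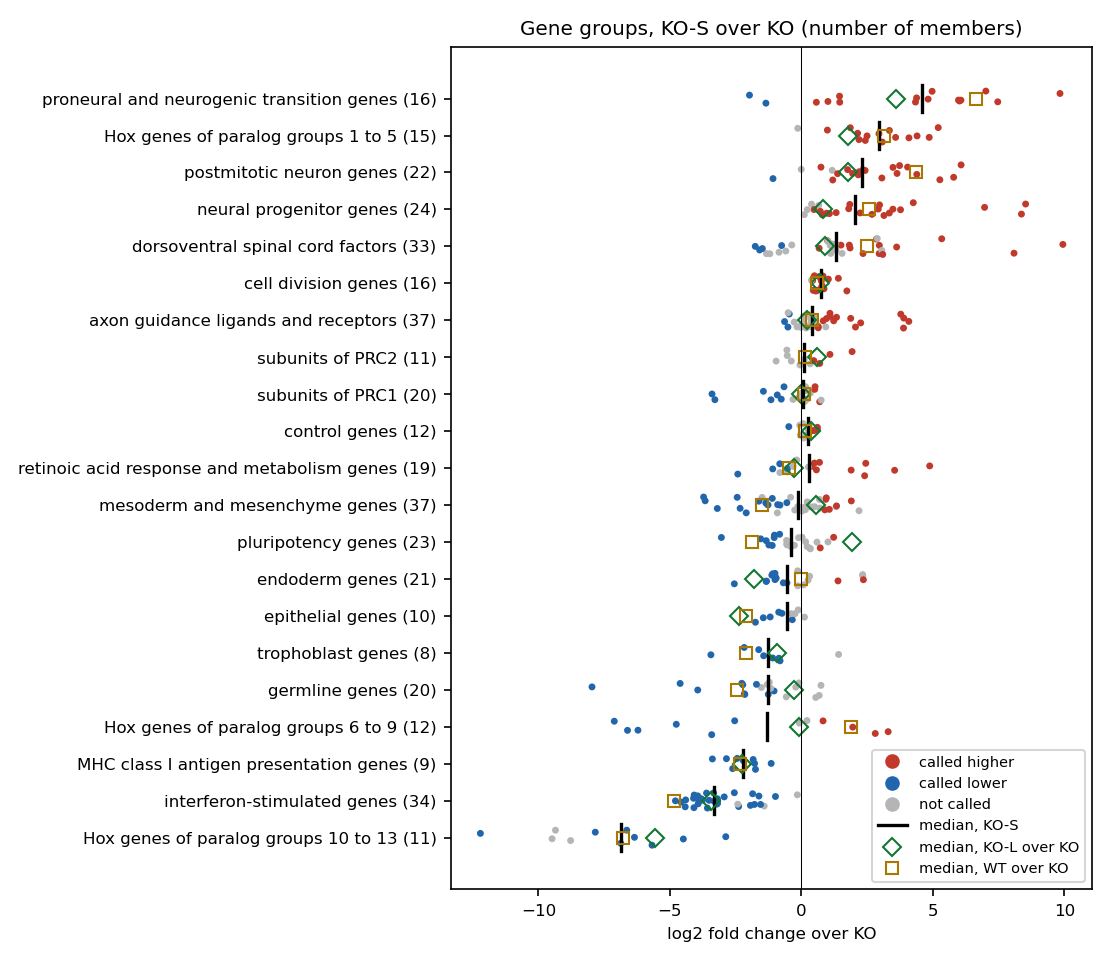
Each row is a gene group, each point a member's log2 fold change of KO-S over KO in the authors' deposited table (red called higher, blue called lower, grey not called), and the black bar the KO-S median; diamonds and squares are the medians of the same members in KO-L over KO and WT over KO, which share the KO libraries. Proneural genes have a KO-S median of 4.60 and Hox genes of paralogue groups 10 to 13 one of -6.87.

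Among dorsoventral factors of the spinal cord, 14 of 33 members were called higher and 4 lower (median 1.30). Dbx1, which marks progenitors of the intermediate neural tube, had 4 and 1 reads in KO and 2345 and 2385 in KO-S. It had the largest rise among well-read members, 9.95 ± 1.01 on the log2 scale in the authors' deposited table (DESeq2 adjusted p 3.06e-21). Olig2, the motor neuron progenitor factor, rose from 23 and 5 reads to 598 and 435 (5.34 ± 0.48), and Lhx1, a factor of interneurons, from 145 and 139 to 1160 and 1338 (3.09 ± 0.25; both from the authors' deposited table). Shh, the ventral ligand, fell from 608 and 619 reads to 246 and 178, and Foxa2, its floor plate regulator, from 1788 and 2243 to 1180 and 1269. Limma called 15 higher and 4 lower with all 4 libraries, 9 and 1 without KO-S library A, 8 and 1 without KO-S library B, and 22 and 5 without KO library A.

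The factors of the brain split. Of 15 members, 5 were higher and 5 lower. Six6, an eye and hypothalamus factor, rose from 4 and 2 reads to 457 and 381, and Wnt1, a dorsal midline ligand, from 15 and 4 to 220 and 212. The forebrain factors Otx1 (140 and 112 reads in KO, 1 and 1 in KO-S) and Six3 (91 and 104, then 2 and 3) fell. The ratio for Otx1 was 129 (exact 95% interval 35.4 to 1073, counting error only). Otx2, its close relative, went in the other direction, from 56 and 29 reads to 139 and 188, with a deposited log2 fold change of 1.95 ± 0.55 (DESeq2 adjusted p 0.00206). Limma called 5 of the 15 higher and 5 lower with all 4 libraries, and 3 and 4 without either KO-S library.

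The Hox genes divided by position. These homeobox genes lie in 4 clusters, and those of low paralogue number, at the 3′ end, are active in hindbrain and neck levels, those of high number in trunk and tail. Of the 15 members of groups 1 to 5, 14 were called higher and 0 lower (median 2.95), the other being Hoxd1 (275 and 236 reads in KO, 255 and 222 in KO-S). Of the 12 in groups 6 to 9, 4 were higher and 6 lower (median -1.31). Of the 11 in groups 10 to 13, 0 were higher and 8 lower.

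Hoxc5 had the largest Wald statistic of all rising members: 146 and 178 reads in KO and 5902 and 6342 in KO-S, a deposited log2 fold change of 5.20 ± 0.19 (DESeq2 adjusted p 5.49e-163). In the same cluster Hoxc8 went from 820 and 987 reads to 9 and 10 (-6.61 ± 0.43 in the authors' deposited table) and Hoxc9 from 691 and 647 to 7 and 3 (-7.11 ± 0.57). Between them Hoxc6 rose from 226 and 292 reads to 495 and 442, a deposited 0.82 ± 0.31 (adjusted p 0.0272). The change of sign therefore lay between Hoxc6 and Hoxc8 in that cluster, between Hoxa6 (3.30 ± 0.45) and Hoxa7 (-2.54 ± 0.67) in the Hoxa cluster, and between Hoxd4 (4.40 ± 0.26) and Hoxd8 (-3.41 ± 0.40) in the Hoxd cluster, all by the authors' deposited table.

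The Hoxb cluster did not share that step. Hoxb8 rose from 1048 and 727 reads to 3540 and 3416 (1.95 ± 0.19 in the authors' deposited table), and Hoxb9 stood at 1548 and 1092 reads in KO and 1299 and 1237 in KO-S (-0.08 ± 0.20, adjusted p 0.819). Its last gene, Hoxb13, fell from 4259 and 2568 reads to 494 and 435, and it kept the most KO-S reads of any group 10 to 13 gene.

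Hoxd13, the most 5′ gene of its cluster, had 1011 and 706 reads in KO and 0 in both KO-S libraries. Taking a floor of 3 reads over the group, it was at least 587-fold lower in KO-S. Hoxa11, Hoxc11, Hoxd11 and Hoxc12 were also at 0 in both KO-S libraries, with 237, 157, 262 and 82 reads over both KO libraries, and were at least 81.0-fold, 53.7-fold, 89.6-fold and 28.0-fold lower. For Hoxa11, Hoxc11 and Hoxd11 the deposited standard errors were 4.00 and the adjusted p from 0.0514 to 0.0751, so they are the 3 members of groups 10 to 13 that were not called. Limma called all 11 lower with all 4 libraries and without each library in turn. The group's median was -6.87, and -6.34 with the genes at 0 set to their bounds.

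**Figure D3:**
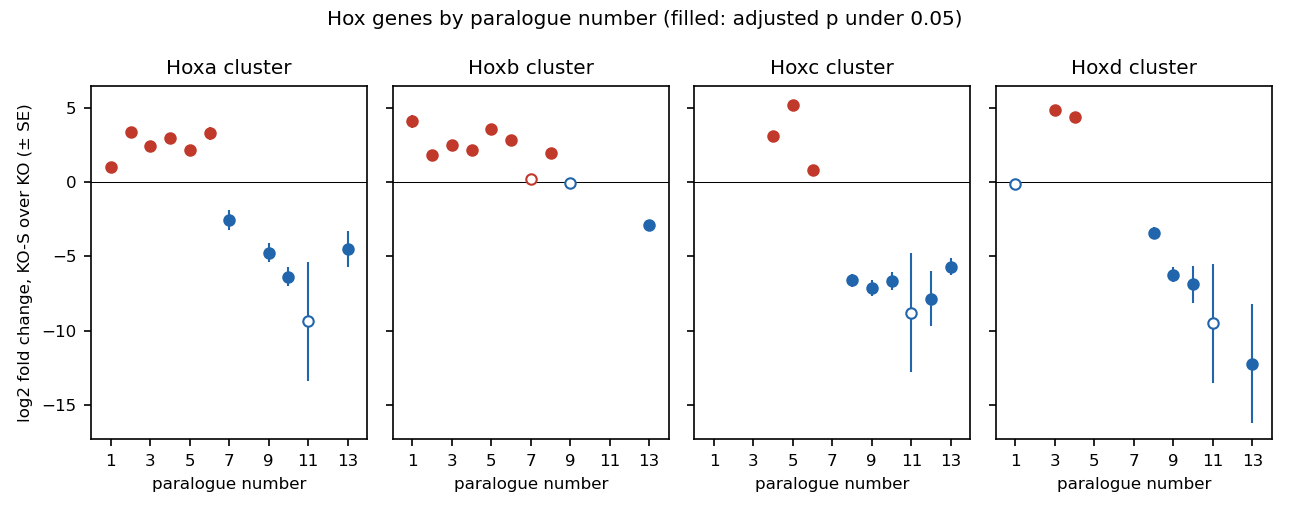
Log2 fold change of KO-S over KO with its standard error, from the authors' deposited table, for the Hox members by paralogue number in the 4 clusters; filled points were called and open points were not. In the Hoxa and Hoxc clusters the points pass from above 0 to below it with rising number, in the Hoxd cluster Hoxd1 is at -0.14 and not called, Hoxd3 and Hoxd4 are above 0 and the points from Hoxd8 on are below it, and in the Hoxb cluster Hoxb8 is still above 0 (1.95).

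Genes that bind or metabolise retinoic acid changed in both directions, 9 of 19 higher and 5 lower (median 0.27). Crabp1 and Crabp2, the cellular carriers of retinoic acid, were among the 6 largest positive Wald statistics. Crabp1 had 325 and 212 reads in KO and 7033 and 9056 in KO-S, a deposited log2 fold change of 4.88 ± 0.21, and Crabp2 had 873 and 1052, then 10591 and 12500, a deposited 3.55 ± 0.16. Aldh1a1, a retinoic acid producing enzyme, rose from 908 and 1361 reads to 3720 and 4851. Cyp26a1, which degrades retinoic acid, went from 14365 and 14802 reads to 9979 and 10448, a deposited -0.55 ± 0.15, and Stra6, a retinol transporter, from 3349 and 4247 to 1716 and 1933 (-1.09 ± 0.17). The receptors rose: Rara 0.69 ± 0.18, Rarb 0.41 ± 0.16 and Rarg 0.50 ± 0.19, each called higher in the authors' deposited table. With limma 6 were higher and 3 lower of the 18 with reads, and without either KO-S library 4 and 1.

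In the Hedgehog, Wnt, BMP and FGF pathways 15 of 43 members were higher and 7 lower. The count of lower members is near the share over all members (18.1%). The Hedgehog receptor and target Ptch1 rose from 3673 and 2838 reads to 7640 and 6710, and the target Gli1 from 318 and 142 to 1490 and 760, with deposited log2 fold changes of 1.11 ± 0.16 and 2.28 ± 0.24. Shh, the ligand of the pathway, was lower, as given above. Fgf15, a neural FGF ligand, rose from 103 and 101 reads to 665 and 630. The Wnt antagonist Dkk1 fell from 303 and 121 reads to 29 and 47, and Lef1, a Wnt effector, from 251 and 243 to 78 and 48, while the Wnt target Axin2 rose by 1.08 ± 0.28 on the log2 scale in the authors' deposited table. Limma called 13 higher and 7 lower with all 4 libraries, 5 and 1 without KO-S library A, and 7 and 2 without KO-S library B.

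Axon guidance genes gave 15 of 37 higher and 3 lower (median 0.41). The netrin receptor Unc5a, one of the 6 largest positive Wald statistics, had 330 and 319 reads in KO and 4891 and 4960 in KO-S. Its deposited log2 fold change was 3.89 ± 0.18 (DESeq2 adjusted p 2.43e-102). Its paralogue Unc5b fell, from 3231 and 2267 reads to 1979 and 1923, and Unc5c (933 and 768, then 851 and 940) was not called. Cntn2, an axonal adhesion protein, had 184 and 58 reads in KO and 1493 and 1689 in KO-S, a deposited 3.90 ± 0.78. Limma called 14 higher and 1 lower with all 4 libraries, and 8 higher and 0 lower when either KO-S library was left out.

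Most interferon-stimulated genes fell. These genes encode the antiviral proteins that cells make after sensing foreign nucleic acid or interferon. All 34 on the list were members; 31 were called lower, 0 higher, and the median log2 fold change was -3.33. Rsad2, the antiviral enzyme viperin, had 2417 and 2271 reads in KO and 156 and 81 in KO-S, a deposited -4.40 ± 0.26 (DESeq2 adjusted p 6.02e-63). Isg15, a ubiquitin-like modifier, had 2310 and 1730, then 218 and 85 (-3.89 ± 0.27). Irf7, a transcription factor of the response, fell from 633 and 181 reads to 19 and 12.

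The 3 listed genes that were not called were Mx1 (39 and 28 reads, then 8 and 5), Mx2 (173 and 75, then 100 and 18) and Cxcl10 (306 and 433, then 220 and 510). The KO-S libraries were not alike in this group. KO-S library A was above library B in 32 of the 34 genes, by a median of 0.80 on the log2 scale, so that for Isg15 one library held 218 reads and the other 85. Both lay well under the KO libraries, and limma called 30 to 32 genes lower without each library in turn. Many of these genes respond to a regulatory element bound by interferon-activated factors, which the RefSeq promoter table (GRCm38.p6) shows in several of them. The stretches of 5 promoters that hold it are printed 5′ to 3′ on the strand of the gene, with every match to GAAANNGAAA or, for the other strand, TTTCNNTTTC in capitals; overlapping matches run together.
Ifit1, chr19:34640765-34640833, plus strand: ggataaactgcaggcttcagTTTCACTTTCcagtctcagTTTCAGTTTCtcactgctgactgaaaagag
Ifit3, chr19:34583353-34583436, plus strand: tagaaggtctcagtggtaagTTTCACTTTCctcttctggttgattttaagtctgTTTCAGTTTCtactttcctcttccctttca
Isg15, chr4:156200855-156200916, minus strand: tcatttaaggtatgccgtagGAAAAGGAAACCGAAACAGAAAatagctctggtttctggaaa
Oas1a, chr5:120907526-120907565, minus strand: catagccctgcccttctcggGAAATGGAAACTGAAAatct
Rsad2, chr12:26456543-26456592, minus strand: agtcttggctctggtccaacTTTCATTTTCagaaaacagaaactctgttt

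The motif stood in the 250 bases before the start site of 308 of the 11957 members with a promoter in that table (2.58%), and in 13 of the 24 listed interferon genes with one. Only 70.6% of the list and 78.1% of all members had a promoter there, under the 80% that a comparison over the set would need, so the counts are given as a description and the comparison is void. Ifit1, an antiviral RNA-binding protein, fell from 2568 and 1978 reads to 384 and 164, Ifit3 from 1187 and 1365 to 120 and 58, and Oas1a, a sensor enzyme for double-stranded RNA, from 766 and 427 to 92 and 43.

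Antigen presentation by MHC class I fell with them: 9 of 9 members were lower (median -2.21). B2m, the light chain, went from 6075 and 7797 reads to 1964 and 2158, a deposited log2 fold change of -1.78 ± 0.17. Psmb8, an immunoproteasome subunit, went from 1528 and 1101 to 143 and 114 (-3.38 ± 0.24), and the peptide transporter subunit Tap1 from 3055 and 2883 to 891 and 929 (-1.74 ± 0.18; all from the authors' deposited table). Of 8 marker genes of blood cells, which also express these genes, 6 were below the minimum baseMean, among them Ptprc, the pan-leukocyte antigen, with 1 and 0 reads in both groups. The 2 blood members, Cd34 and Itga2b, held 289 and 192 reads together in KO and 170 and 117 in KO-S. Cd34, which endothelium also expresses, fell from 246 and 171 reads to 99 and 82, and Itga2b was not called. The part of such cells in the result was not tested.

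The largest fall among well-read members was H19, an imprinted noncoding RNA. It had 57533 and 40918 reads in KO and 1989 and 2347 in KO-S, a deposited log2 fold change of -4.53 ± 0.17 (DESeq2 adjusted p 5.68e-147). Its neighbour Igf2, a growth factor under the same imprint, went the other way by a deposited 0.58 ± 0.14; its reads were not recovered. Dlk1, another imprinted gene, rose from 3665 and 5472 reads to 23577 and 27618 (2.47 ± 0.16), and Phlda2, a placental growth regulator, fell from 1129 and 428 to 90 and 94 (-2.96 ± 0.35; authors' deposited table). Over the 23 imprinted members 6 were higher and 7 lower, and limma called 3 higher and 5 lower of the 18 with reads (2 and 4 without KO-S library A, 2 and 5 without KO-S library B). The falls of Nnat, a membrane protein, and Airn, a noncoding RNA, rested on 1 KO-S library: Nnat had 974 and 2996 reads in KO-S against 2573 and 3284 in KO, and Airn 3 and 101 against 79 and 164. Without KO-S library A, limma gave 0.03 for Nnat (adjusted p 0.974) and -0.19 for Airn (adjusted p 0.898).

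Cell-cycle genes moved in a graded way. The Cdkn2a and Cdkn2b inhibitors, which share a locus that Polycomb is known to silence, fell from 2484 and 3312 reads to 218 and 306 and from 1384 and 1901 to 174 and 202. The deposited log2 fold changes were -3.51 ± 0.19 and -3.15 ± 0.23, and Cdkn2a had one of the 6 largest negative Wald statistics. Over the 9 CDK inhibitors and D cyclins 2 were higher and 3 lower (median 0.21), and the inhibitor Cdkn1b rose, from 997 and 654 reads to 1913 and 1769 (1.15 ± 0.20 in the authors' deposited table). For this list limma called 2 higher and 3 lower of the 8 with reads, 0 and 3 without KO-S library A, and 1 and 2 without KO-S library B. Cell division genes gave 15 of 16 higher and 0 lower, with a small median of 0.73. Pcna, the replication clamp, rose from 5329 and 5417 reads to 9227 and 10326 (0.82 ± 0.15), and Mcm2, a helicase subunit, was not called (0.38 ± 0.19, adjusted p 0.0949; both in the authors' deposited table). By limma 11 of the 16 were higher with all 4 libraries, 1 without KO-S library A and 2 without KO-S library B. Among p53 and stress genes 10 of 27 were higher and 9 lower. The p53 targets Ccng1 (22860 and 24755 reads, then 11065 and 13023) and Mdm2 (4993 and 5868, then 3064 and 2902) fell. The p53 target Pmaip1 went the other way, from 18.0 and 23.8 RPM in KO to 61.4 and 64.6 in KO-S. Bbc3, another p53 target, overlapped between the groups (54.7 and 62.0 RPM in KO, 58.9 and 52.5 in KO-S). The serine synthesis enzymes Phgdh (3889 and 4412 reads, then 7837 and 9400) and Psat1 (2780 and 2737, then 5742 and 6936) rose. For this list limma called 10 higher and 7 lower with all 4 libraries, 3 and 3 without KO-S library A, and 2 and 4 without KO-S library B.

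For genes of the starting cells and of other lineages, the KO libraries differed from each other. Of 23 pluripotency members, 2 were called higher and 8 lower (median -0.39). Nanog, a core pluripotency factor, had 1749 and 295 reads in KO and 1067 and 805 in KO-S, and Pou5f1, its partner, 2671 and 443, then 817 and 707, so in both genes the KO-S libraries lay between the KO libraries. KO library A was above library B in 22 of 23 pluripotency genes (median difference 1.26 on the log2 scale) and in 20 of 20 germline genes (1.87). Without KO library A, limma called 10 pluripotency genes higher and 4 lower; without KO library B it called 2 higher and 16 lower. The direction of these calls for pluripotency genes as a group thus turned with the KO library kept, which was taken to vary like the KO-S libraries. Tdgf1 (1531 and 646 reads, then 379 and 324) and Klf4 (1619 and 1336, then 738 and 666) were below both KO libraries in both KO-S libraries.

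Germline genes gave 10 of 20 lower and 0 higher (median -1.28). Asz1, a germ cell gene of the piRNA pathway, had 256 and 42 reads in KO and 1 and 0 in KO-S, a ratio of 306 (exact 95% interval 54.4 to 12110, counting error only). Rec8, a meiotic cohesin, had 7412 and 4401, then 1368 and 1246, a deposited log2 fold change of -2.17 ± 0.18. Without KO library A limma called 6 lower and 1 higher, and without KO library B 17 lower and 0 higher, against 5 and 0 with all 4.

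Endoderm genes gave 11 of 21 lower and 2 higher (median -0.56). The transcription factors Sox7 (1197 and 777 reads, then 159 and 180) and Gata6 (1696 and 2171, then 684 and 889) fell. The secreted liver-type proteins Afp (174 and 2399 reads in KO, 3187 and 3514 in KO-S) and Apoa1 (236 and 4147, then 4069 and 6444) were not called, with more than 10-fold between the KO libraries. Without KO library B limma called 6 endoderm genes higher and 4 lower, and without KO library A 2 higher and 11 lower. Trophoblast genes gave 7 of 8 lower and epithelial genes 6 of 10 lower, with 0 higher in both. Krt19, an epithelial keratin, went from 14211 and 15649 reads to 3997 and 5209. Limma called 5 of the 8 trophoblast genes lower with all 4 libraries and 2 without KO-S library B, and of the 6 epithelial genes with reads 3 were lower with all 4, 1 without KO-S library A and 2 without KO-S library B. Mesoderm and mesenchyme gave 6 of 37 higher, near the share over all members (16.7%), and 13 lower. Osr2 (499 and 585 reads, then 54 and 32) and Tagln, a smooth muscle protein (1897 and 2229, then 515 and 473), fell. Col1a1, a collagen chain (147 and 83, then 441 and 410), rose. Limma called 6 mesoderm genes higher and 10 lower with all 4 libraries, 1 and 6 without KO-S library A, and 1 and 5 without KO-S library B. How far such cells take part in the neural results was not tested.

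**Figure D4:**
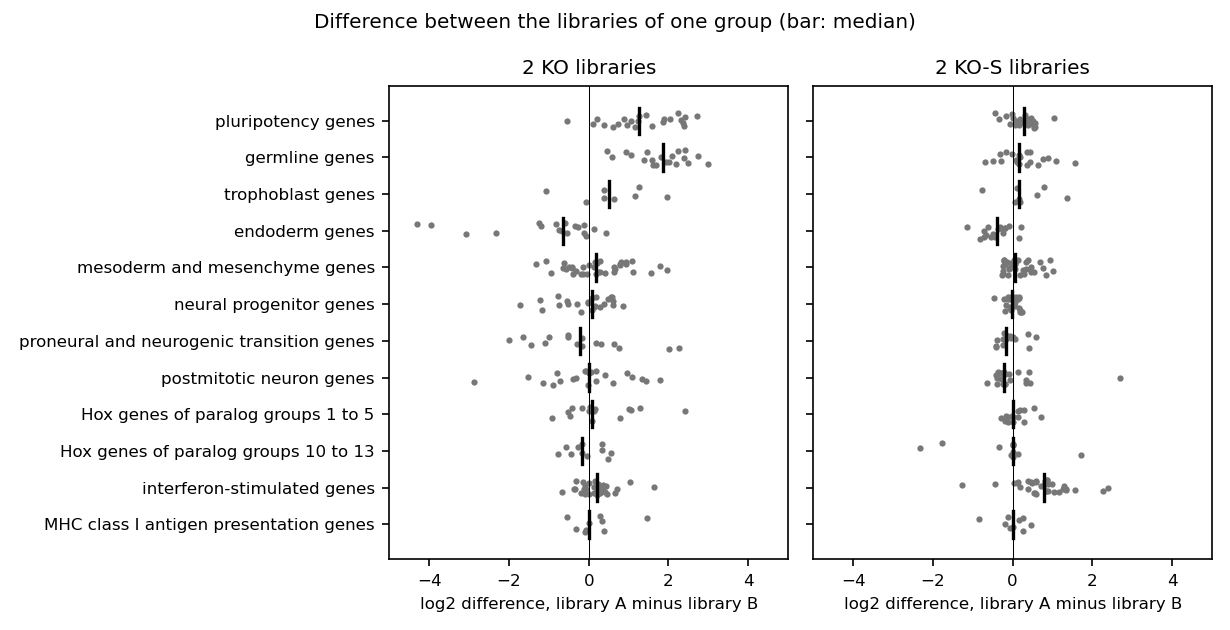
Each point is a gene's log2 difference in normalised reads (with 0.5 added) between library A and library B, for the 2 KO libraries on the left and the 2 KO-S libraries on the right, by gene group, with the median as a bar. Pluripotency (1.26) and germline genes (1.87) lie to the right for KO, and interferon-stimulated genes (0.80) do so for KO-S.

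Some genes switched between near absence and clear expression. With at most 5 reads in each library of one group and at least 100 in each of the other, 19 of the 15165 members with reads were expressed in KO-S only, and 12 in KO only. The first set held the neural regulators Neurog2, Neurod4, Hes5, Dbx1, Rfx4, Scrt1, Scrt2, St18 and Prdm12, and Fabp7, a lipid carrier of radial glia (1 and 4 reads, then 304 and 329). It also held Hk3, a hexokinase (1 and 2 reads, then 523 and 468), and Mir124-2hg, the host transcript of a neuronal microRNA, which had 0 reads in both KO libraries and 284 and 263 in KO-S, at least 178-fold higher. The second set held Hoxd13, Hoxd11, Hoxd10, Hoxc10 and Otx1 and the motor neuron factor Isl2 (128 and 122 reads, then 4 and 5). Hk3, Mir124-2hg and the other genes of these sets that are on no list were named after their values were seen.

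Beyond these groups, the rule for the largest changes named Fgfbp3, a secreted FGF-binding protein (36 and 71 reads in KO, 1953 and 1964 in KO-S; 5.20 ± 0.29 on the log2 scale in the authors' deposited table), and Tmem132e (158 and 192, then 2790 and 2803). Ina, a neuronal intermediate filament (119 and 107, then 1418 and 1683), and Pou3f2, a neural POU factor (111 and 65, then 1807 and 1562), were among the 12 largest rises as well. The falls it named, apart from H19 and the interferon genes, were Lgals9, a galectin (5377 and 6677 reads, then 251 and 309), Sh3bgr (2044 and 2710, then 127 and 93), S100a6, a calcium-binding protein (1283 and 1274, then 66 and 64), Sohlh2, a germ cell factor (2973 and 1053, then 111 and 83), Parp12 (4187 and 2427, then 225 and 133) and Htra1, a secreted protease (2208 and 3354, then 189 and 245).

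The authors also deposited regions of Suz12 and H3K27me3 in stem cells, the undifferentiated state, labelled WT. The regions come from a comparison made with the tool DiffBind, so members near no region need not be without these marks. An end of 2148 members lay within 2500 bp of one of the 2865 Suz12 regions. Of these, 22.7% were called higher and 26.1% lower, against 15.4% and 16.1% of the 11267 members near no region of either kind. A further 1891 members were near one of the 6882 H3K27me3 regions and no Suz12 region, with 17.9% higher and 20.4% lower. Changes of at least 2 on the log2 scale were found in 21.6% of members at Suz12 regions and 6.35% of those at none. The median change at Suz12 regions was small, -0.06 in KO-S against -0.24 in KO-L and -0.12 in WT over the same KO libraries. Genes at Suz12 regions had a lower median baseMean (244) than genes at none (825), and the part of that in these shares was not tested. All Hox members and all 33 dorsoventral members lay at Suz12 regions, as against 2148 of all 15306 members. Of the 34 interferon genes 1 lay at a Suz12 region and 5 at an H3K27me3 region. Of the 9 MHC class I genes, which also fell, 5 lay at a Suz12 region and 7 at an H3K27me3 region.

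By chromosome the medians were close to 0, from -0.09 on chromosome 11 (1296 members, 14.2% higher and 21.0% lower) to 0.09 on chromosome 10. Chromosome 8 is given because the WT tables show a shift there: the median of its 808 members was 0.0018 in KO-S and 0.0062 in KO-L but 0.24 in both WT comparisons with KO.

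KO-S and KO-L were then set against each other, each by its deposited change from the same KO libraries. The difference of the log2 fold changes was divided by its combined standard error. The KO libraries enter both errors, which by itself makes the p-values larger. Direct limma contrasts called more members for KO-L and the main WT pair, but fewer for the other WT pair, as given below. Of the 15004 members that passed the minimum in each table, 862 were higher in KO-S than in KO-L (5.75%) and 666 lower (4.44%; adjusted p under 0.05). A direct limma contrast on the recovered reads called 2240 higher and 2275 lower. The tables were normalised separately, so levels across groups are given in RPM.

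The 5 largest differences with KO-S higher began with a retinoic acid gene. In RPM, Aldh1a1 stood in KO-S at 176 and 228, in KO-L at 2.48 and 4.71, and in KO at 43.6 and 69.4. The difference between KO-S and KO-L was 5.88 ± 0.34 on the log2 scale (adjusted p 4.59e-62). Its neighbour Aldh1a7 (difference 5.72 ± 0.37), Barx2 (5.32 ± 0.48), Prom2 (5.11 ± 0.43) and Apoa4 (4.92 ± 1.34) followed. Barx2, a homeobox factor, and Prom2, a membrane protein of epithelia, were not called between KO-S and KO and were low in KO-L: Prom2 had in KO-S 880 and 823 reads, in KO 850 and 834, and in KO-L only 25 and 20. Of 10 epithelial members, 9 were higher in KO-S than in KO-L and 0 lower.

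Of 24 progenitor members 11 were higher in KO-S than in KO-L and 0 lower (median difference 1.16), and of the 15 Hox genes of groups 1 to 5, 10 were higher and 0 lower (1.37). Pax6 stood at 128 and 127 RPM in KO-S and 16.1 and 20.2 in KO-L, a difference of 2.83 ± 0.38 (adjusted p 2.53e-11). Unc5a differed by 3.04 ± 0.34. Of 22 neuron members and of 16 proneural members 2 each were higher in KO-S than in KO-L and 0 lower. For Hox groups 6 to 9 the order was mixed, with 2 higher and 6 lower, and of the 11 members of groups 10 to 13, 0 were higher and 2 lower.

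Genes lower in KO-S than in KO-L included pluripotency genes, 14 of 23, with 2 higher (median difference -2.60). In RPM, Nanog stood in KO-L at 323 and 220, and in KO-S at 50.4 and 37.8. The 5 largest differences of this sign were in Stra8, a germ cell gene (-4.85 ± 1.14), Acta2, smooth muscle actin (-3.31 ± 0.39), Esrrb, a pluripotency factor (-3.13 ± 0.76), Spp1, a secreted matrix protein (-3.06 ± 0.26), and Col3a1, a fibroblast collagen (-3.01 ± 0.31). Col3a1 had in KO-L 11731 and 11123 reads, in KO-S 1630 and 1495, and in KO 1820 and 1029. The median change from KO of the interferon genes was -3.33 in KO-S and -3.44 in KO-L, and 13 of 34 were higher and 5 lower in KO-S than in KO-L: Ifit1 had in KO-L 12 and 14 reads, against 384 and 164 in KO-S.

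**Figure D5:**
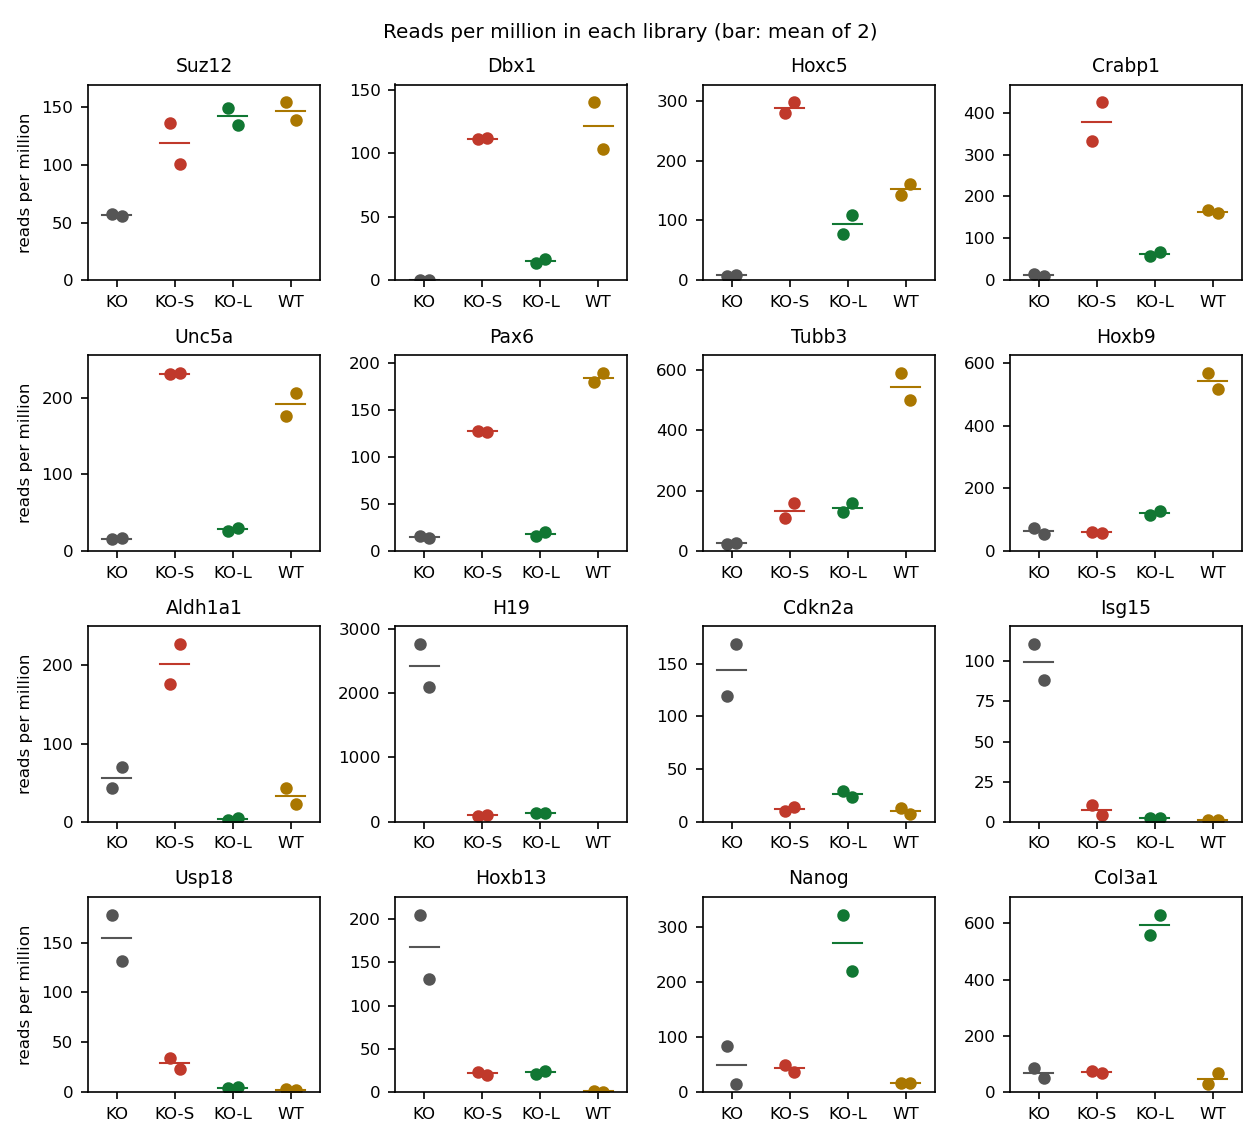
RPM over 15142 members in each library for 16 genes (points; the bar is the mean of 2 libraries), in KO, KO-S, KO-L and the WT pair of the main comparison; H19 in WT was not recovered. Pax6 and Unc5a are high in KO-S and WT and low in KO and KO-L, Usp18 and Isg15 are between KO and WT in KO-S, and Nanog and Col3a1 are high in KO-L.

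Against WT, by the same measure, 456 of 15199 members were higher in KO-S (3.00%) and 273 lower (1.80%). With the other pair of WT libraries these counts were 137 and 53, and a direct limma contrast with the main pair gave 1624 and 1296, so the counts depend on the WT pair and the test. Of 22 neuron members, 14 were lower in KO-S than in WT and 0 higher (median difference -1.98), while with the other WT pair 0 were called in either direction (median -0.79). Map2, a dendritic protein, stood at 79.8 and 86.6 RPM in KO-S, 313 and 381 in the main WT pair, and 62.0 and 390 in the other WT pair, whose libraries differed from each other. The difference from the main pair was -2.10 ± 0.35 (adjusted p 6.04e-07) and that from the other pair -0.91 ± 0.54 (adjusted p 0.998). Crmp1 (-2.19 ± 0.34) and Nell2 (-2.21 ± 0.36), further neuronal genes, and the imprinted Nnat (-2.11 ± 0.36) followed the same course and were not called with the other pair.

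Hoxb9 was lower in KO-S with both WT pairs, by -3.23 ± 0.33 (adjusted p 4.25e-19) and -2.45 ± 0.46. It stood at 61.4 and 58.0 RPM in KO-S, 569 and 517 in the main WT pair and 164 and 644 in the other. Of the 12 Hox genes of groups 6 to 9, 8 were lower in KO-S than in the main WT pair and 5 than in the other. Genes above WT in KO-S with both pairs included Upk3b, a membrane protein of mesothelium and urothelium (4.49 ± 0.47 and 4.27 ± 0.54), and Hoxb13 (3.90 ± 0.40 and 2.31 ± 0.43). Adamtsl4 (3.52 ± 0.49 and 2.18 ± 0.54), Lrrn4 (3.36 ± 0.51 and 2.05 ± 0.53) and Usp18, a brake on interferon signalling (3.31 ± 0.35 and 3.03 ± 0.48), were further ones. Upk3b was at 114 and 113 RPM in KO-S and 17.3 and 19.2 in KO, so it rose from KO and away from WT (5.35 and 4.47). Lrrn4 did so as well, at 56.9 and 48.1 RPM in KO-S, 20.3 and 24.5 in KO and 6.65 and 3.62 in the main WT pair. Of the 34 interferon genes 15 were higher in KO-S than in WT and 0 lower, and 7 with the other WT pair.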

How the data were processed

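RNA was measured by sequencing in neural precursors, and the authors deposited 1 table of statistics per comparison with no columns of samples. Per the file headers, each table gives a baseMean signal (reads over size factors, averaged over its libraries), a log2 fold change with its standard error, a Wald score (the stat column), a p-value and an adjusted p. Bowtie, TopHat, DESeq2, DiffBind and the builds mm10 and dm3 are named, per the submitters' processing notes, without versions. The counter, the annotation and any block for replicates are not given in the sources used here. The authors' names for the comparisons end in the word paired. Whether this means paired-end reads or a fit that pairs the replicates is not stated there. Calls are the deposited adjusted p under 0.05.

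Whole reads per library were recovered from the deposited baseMean values, given to 15 significant digits, which fix the reads once the size factors are known. The same KO reads came back from all 4 tables that hold KO. Recovered libraries cannot be tied to replicate numbers. They were used to show values per library and for limma 3.58.1 in R 4.3.3 (trend, log2 of normalised reads plus 0.5), as an alternative only, checked on simulated reads. With between 20790836 and 22590504 recovered reads a library, intervals of ratios cover counting error only. For genes with at most 3 reads over a group, the fold is a bound at a floor of 3 reads (0 reads) or a ratio with an exact 95% interval.

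Differences between KO-S and KO-L or WT were computed as the difference of deposited log2 fold changes over the root of the summed squared errors, with a two-sided normal p and Benjamini-Hochberg adjustment over all genes tested. The members and the 31 gene lists were chosen with earlier results of these data known. Genes were named as examples from the lists, as the 12 largest called rises and falls at or above the median baseMean, as the 6 largest Wald statistics of each sign, and as the 5 largest differences of each sign from KO-L and WT. Regions are the authors' deposited lists, made with DiffBind at an FDR of 5%, per the file headers. Promoter sequences are from RefSeq (GRCm38.p6). Alternatives were a stricter adjusted p, a fold minimum, other baseMean minima, limma, each library left out and another region distance. Results for some listed genes are not reported here.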

Additional observations from a re-analysis of the deposited data

Results flagged for a closer look

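The change from KO differed between the rescues: 862 members were higher in KO-S than in KO-L and 666 lower, by the test of the difference itself. The change also differed from that of WT, with 456 members higher in KO-S than in WT and 273 lower. Aldh1a1 and Pax6 were among the genes higher in KO-S than in KO-L, Stra8 and Acta2 among those lower, Upk3b among those higher than in WT and Hoxb9 among those lower. All of these tests share the KO libraries.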

How the results depend on the processing

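With a minimum of 1 on the absolute log2 fold change, 1151 members were higher and 1681 lower. Leaving out each library in turn, limma called between 540 and 2914 higher and between 974 and 3045 lower, the fewest without KO-S library A. With all 4 libraries limma and the deposited table called 3903 members in the same direction and 0 in opposite directions. An adjusted p under 0.01, other baseMean minima and a pseudocount of 2 left both counts within 1.5 times.

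A direct limma contrast of KO-S with KO-L called 2240 higher and 2275 lower, and with WT 1624 and 1296. At an adjusted p under 0.01 the differences numbered 533 and 416 from KO-L and 279 and 148 from WT. With the other WT pair, an alternative chosen after seeing the data, 137 were higher and 53 lower, and by limma 97 and 29. The cause was not tested. Limma for the gene lists was also added after seeing the data.

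The median of the neuron subtype genes changed sign, from 0.69 to -0.50, with a baseMean of at least 100. Counts at regions with 10000 bp and the 19 chromosome medians moved little. No paired analysis was possible because the recovered libraries carry no replicate number. Genes at 0 reads in a group have only a bound on their change.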

Other observations

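The list of DNA methylation and TET enzymes also holds Uhrf1, Zfp57 and Trim28. It gave 6 of 10 members higher in KO-S than in KO and 1 lower, with a median log2 fold change of 0.64 in the authors' deposited table. The Dnmt genes did not move together. In RPM, Dnmt1 went from 273 and 147 in KO to 402 and 302 in KO-S. Dnmt3a went from 283 and 339 to 296 and 261, and Dnmt3b from 93.6 and 54.0 to 50.0 and 45.1. Tet3 rose from 85.0 and 87.0 to 171 and 155. Limma called 2 of the 9 with reads higher with all 4 libraries, 7 without KO library A and 0 without KO-S library A. Neural crest genes gave 4 of 11 higher and 3 lower, the same counts as by limma with all 4 libraries; limma called 4 and 0 without KO-S library A, 3 and 1 without KO-S library B, and 4 and 5 without KO library B. Control genes gave 4 of 12 higher and 1 lower with a median of 0.24, and limma called 0 of the 3 with reads in every fit.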
